A study of Homo sapiens with 4 samples.

Results

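Molecular chaperones of the heat shock protein families, and the J-domain proteins that direct them, were examined in HCT116, a human line of colon cancer cells. The genes were taken by symbol from the platform's probe table: HSPA, HSPB and DNAJA, DNAJB or DNAJC symbols followed by a number, symbols starting with HSP90, and HSPD1, HSPE1 and HSPH1, without the 4 endoplasmic reticulum genes HSPA5, HSP90B1, DNAJB9 and DNAJC3. Only probe sets listed for 1 gene were used, so HSPA1A, HSPA1B and HSPA8, the best known HSP70 genes, are not among them: their probe sets are listed for several genes and were not used here. This gave 68 genes of 19777 on the array, of which 5 are antisense or divergent RNAs that carry a chaperone gene's name. Serum was withheld for 24 h before 72 h in 1% oxygen (hypoxia) or 21% oxygen (normoxia, the control), so that cells of both groups had been deprived of serum. Each group held 2 arrays, labelled exp A and exp B and called A and B here. The labels do not say whether these were separate cultures, or whether they pair arrays across oxygen levels. P-values therefore measure the spread between these arrays, which may be technical.

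Heat shock proteins keep other proteins folded. HSP70 binds exposed stretches of unfolded protein in a cycle driven by ATP: J-domain proteins (the DNAJ families, after bacterial DnaJ) bring the client and trigger ATP hydrolysis, and nucleotide exchange factors of the HSP110 group release it. HSP90 takes partly folded kinases and hormone receptors from HSP70, small HSPs hold unfolded proteins without using ATP, and the mitochondrial chaperonin, HSP60 with its lid HSP10, encloses proteins that have just been imported. In cells under heat or oxidative stress the transcription factor HSF1 binds heat shock elements, repeats of the letters GAA in alternating orientation, and induces many of these genes.

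Values are MAS5 signals, a background-corrected summary of each probe set on a linear scale. The scaling had set all 4 arrays to a trimmed mean of 500.1, so directions are relative to that mean. The median signal was 69.2 and 99.96 in normoxia and 119.6 and 125.0 in hypoxia. The bacterial hybridization controls ranged from 2051 to 3961 in normoxia and from 7071 to 8579.7 in hypoxia (geometric means). The ratio of 3' to 5' control signal of beta-actin was 1.26 and 1.28 in normoxia against 1.66 and 1.77 in hypoxia, and that of GAPDH lay between 0.912 and 0.996 on all arrays; the part of either in the results was not tested. Of 10 colon epithelial markers 8 passed the filter on low signals, with a summed signal of 79432 to 93196 in normoxia and 112628 to 122042 in hypoxia, led by KRT19, KRT18 and EPCAM; VIL1 and CDX2 were near the filter and CDX1 and LGALS4 under it. The 6 fibroblast markers summed to 733 to 1182 in normoxia and 2446 to 2797 in hypoxia, mostly from COL1A1, while none of the 3 leukocyte markers and 1 of 4 endothelial markers passed the filter; the part of these markers in the results was not tested.

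Of the 68 genes, 51 had a mean signal of 97.4 or more (the median probe set mean) and were tested. Called higher in hypoxia were 4 of them, DNAJB2, HSPB8, DNAJC1 and HSP90AA1, and called lower were 14, among them HSPE1, HSPA9, DNAJA3, DNAJC19 and DNAJC11 of the mitochondrion and the histone chaperone gene DNAJC9. The limma test, with Benjamini-Hochberg adjustment over all 12636 genes and a threshold of 0.05 on the adjusted p, called 38.0% of all genes, 15.3% higher and 22.8% lower. The members' share called, 35.3% (7.84% higher and 27.5% lower), lies near that background, so the number of calls is no result about chaperone genes as a class. It also varied with single arrays: without hypoxia A 10 members were called higher (19.6%, against 19.9% of all genes in that fit). Without normoxia A 6 were called lower (11.8% against 10.8%) and without normoxia B 7 (13.7% against 11.3%), so these counts moved with those of all genes. In a fit without an intensity trend, which called 24.9% of all genes, 8 of the 18 members kept their call. Hypoxia and normoxia values did not overlap in 34 of the 51, or 66.7%, against 72.0% of all genes. The median log2 difference (hypoxia minus normoxia, of signal + 23.7, a scale that understates changes of low signals) was -0.11 over tested members and -0.028 over all genes. Differences were also small in size, with a median absolute value of 0.45 against 0.74 over all genes; 12 called members reached a 2-fold difference, 3 higher and 9 lower.

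**Figure D1:**
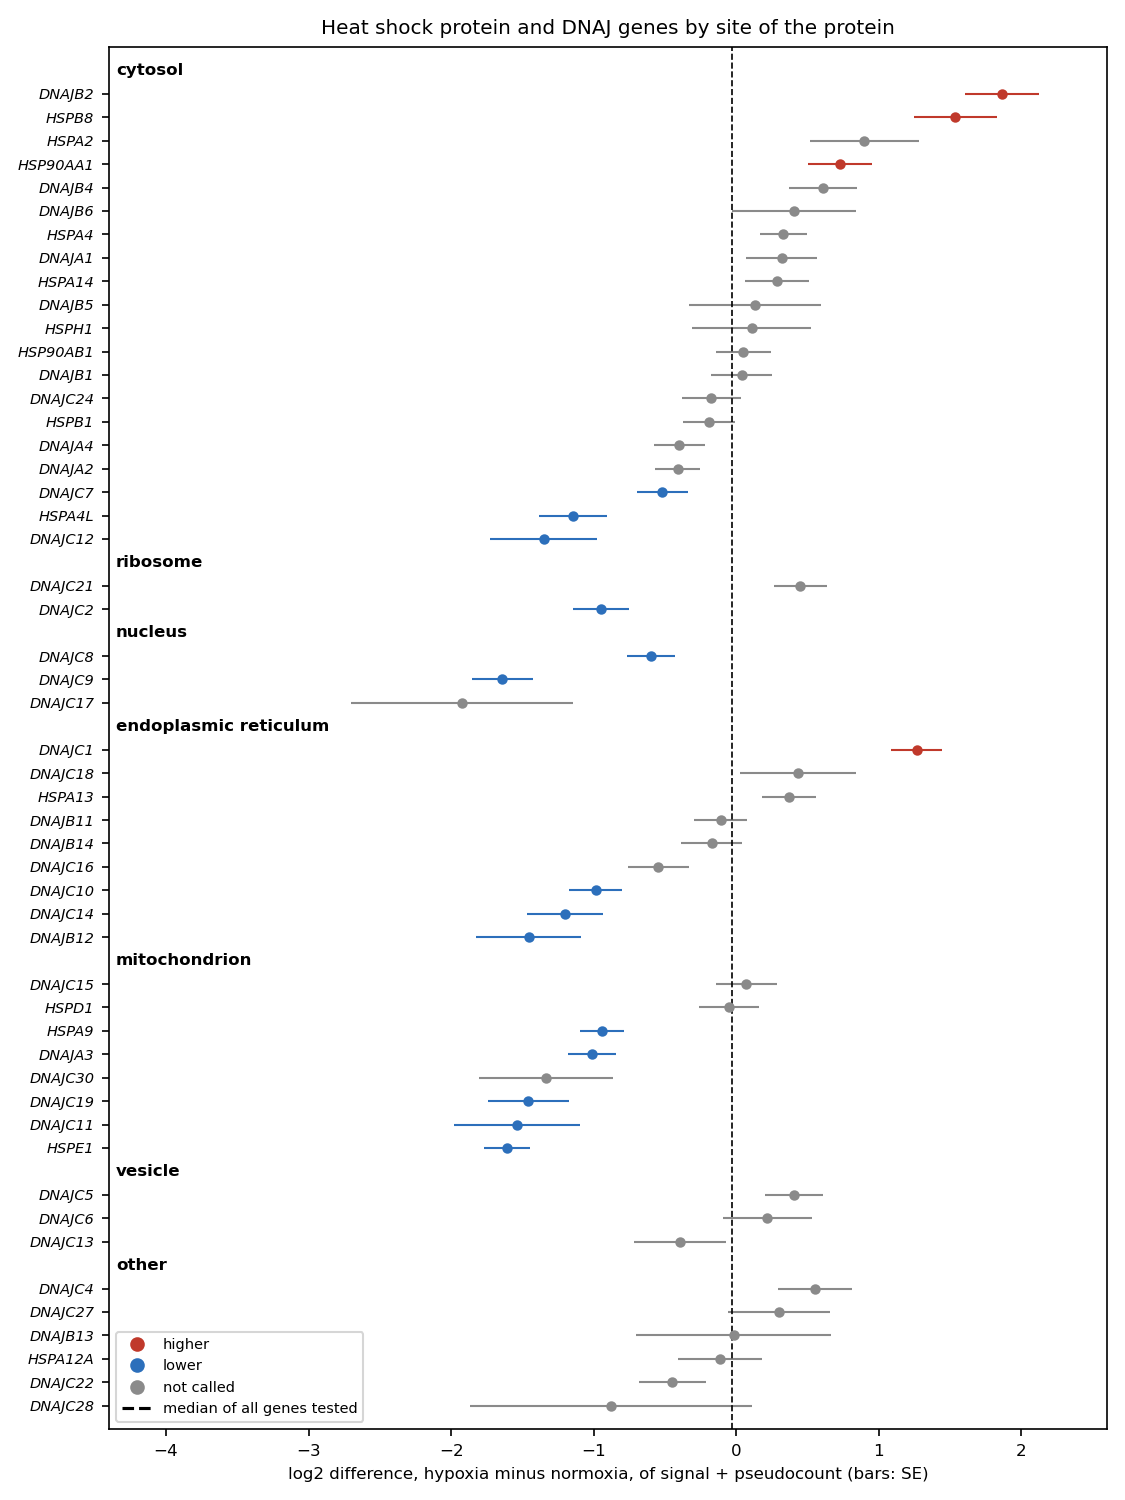
Log2 difference in MAS5 signal (hypoxia minus normoxia, with its SE) of the 51 tested members, arranged by where the protein acts; colours give the limma call and the dashed line the median of all genes. The 8 mitochondrial members span -1.61 to 0.071 and 5 are called lower, while the 20 cytosolic members spread on both sides of the line, with 3 called in each direction.

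Among the cytosolic chaperones that do the bulk of folding, 1 of the HSP90 genes was higher and the heat-inducible HSP70 co-chaperones were not called. HSP90AA1, the stress-inducible cytosolic HSP90, had signals of 24159 and 35938 on the normoxia arrays and 47664 and 49914 on the hypoxia arrays. Both hypoxia values stood above both normoxia values, and the gene was called (0.73 ± 0.23 SE in log2 units, adjusted p = 0.0318). Its constitutive paralogue HSP90AB1 was at 21439 and 27919 on the normoxia arrays and 25407 and 25187 on the hypoxia arrays, with groups that overlap (0.048 ± 0.19 SE). The call of HSP90AA1 held in 8 of 15 alternative settings only: it was lost without hypoxia A (0.76 with adjusted p = 0.107) or hypoxia B (0.69 with adjusted p = 0.136), and its size went from 0.44 if normoxia A was left out to 1.01 if normoxia B was. The mean of its probe sets was not called (0.36 with adjusted p = 0.254), and its direction turned under quantile normalization (-0.23 with adjusted p = 0.0662). The other probe sets of the gene gave 0.47, 0.17 and 0.062. Quantile normalization also moved HSP90AB1, to a call as lower (-0.72 with adjusted p = 8.02e-04).

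HSPH1, an HSP110 exchange factor and a classical heat shock gene, differed widely between the hypoxia arrays. Its signal was 5173 and 5969.8 on the normoxia arrays and 3419 and 10474 on the hypoxia arrays, so that hypoxia A lay below and hypoxia B above both normoxia arrays (0.11 ± 0.42 SE). Without hypoxia A it would be called higher (0.91 with adjusted p = 0.00106) and without hypoxia B lower (-0.70 with adjusted p = 0.00329), and no direction can be given. DNAJA1, the main class A partner of cytosolic HSP70, was at 11719 and 13033 on the normoxia arrays and 11692 and 20319 on the hypoxia arrays and was not called (0.32 ± 0.25 SE in log2 units, adjusted p = 0.346); without hypoxia A it passed (0.72 with adjusted p = 0.0177). DNAJB1, the inducible HSP40, was at 5485 and 6984 on the normoxia arrays and 5266 and 7654 on the hypoxia arrays. Its groups overlap, and its log2 difference was 0.037 ± 0.22 SE. HSPB1 (HSP27), an abundant small HSP, had 7524 and 9865 on the normoxia arrays and 7597 and 7496 on the hypoxia arrays. Those values overlap too (-0.19 ± 0.18 SE). The strictly inducible HSPA6 had mean signals of 100.2 ± 43.8 in normoxia and 72.2 ± 49.7 in hypoxia (SD, n = 2), under the filter, so it was not tested.

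**Figure D2:**
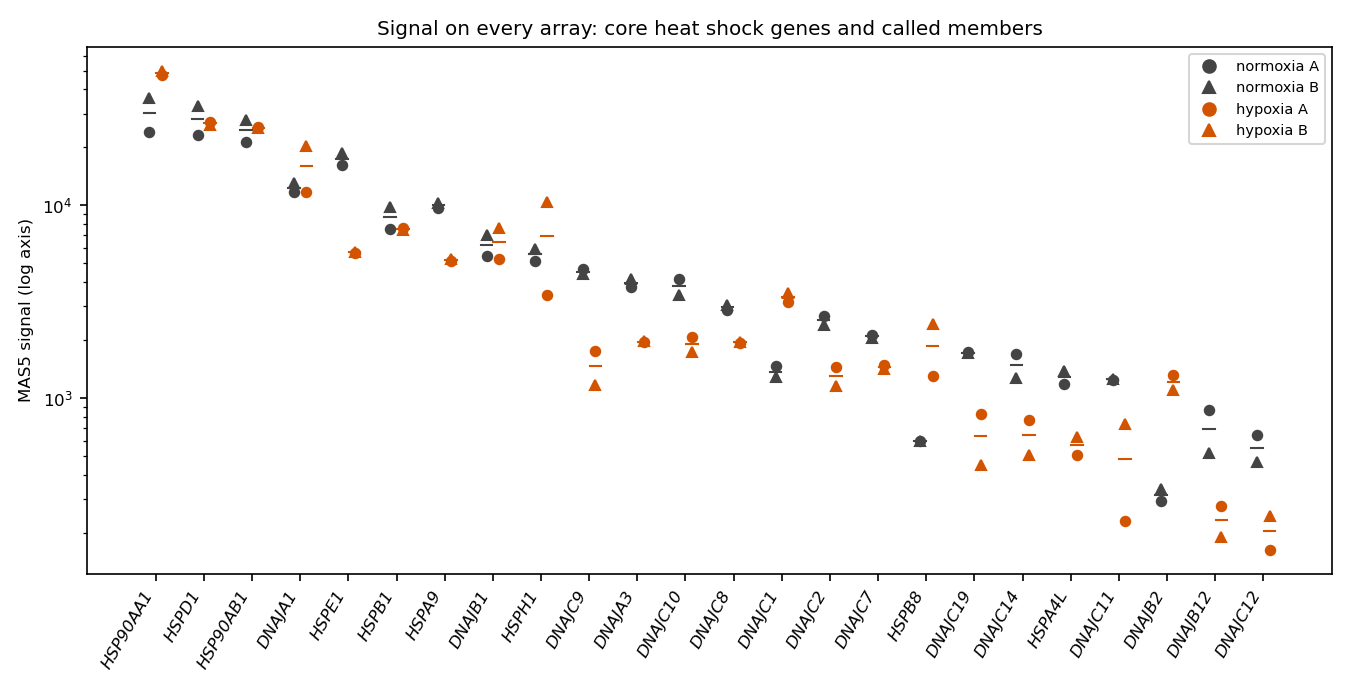
MAS5 signal (log axis) of the core heat shock genes and of all 18 called members on each of the 4 arrays, ordered by mean signal; circles are A arrays, triangles B arrays and dashes group means. The hypoxia arrays stand apart for HSPH1 (3419 and 10474) and nearly coincide for HSPE1 (5670.2 and 5734).

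The largest increases among the members were those of DNAJB2 and HSPB8. DNAJB2, whose product carries ubiquitin-interacting motifs and passes HSP70 clients to the proteasome, rose from 291 and 336 on the normoxia arrays to 1314 and 1098 on the hypoxia arrays (1.86 ± 0.26 SE in log2 units, adjusted p = 7.54e-04). HSPB8, a small HSP that works with the co-chaperone BAG3 in removing aggregates by autophagy, rose from 598 and 599 to 1305 and 2431 (1.54 ± 0.29 SE in log2 units, adjusted p = 0.00343). In both genes the groups lie far apart, although the hypoxia values of HSPB8 differ widely. Scaled to the hybridization controls, where the median of all genes was -1.48, DNAJB2 was at 0.47 with adjusted p = 0.583, and HSPB8 at 0.12 with adjusted p = 0.896. DNAJB2 has only 1 probe set, so no second set checks it. HSPB8 had a second, dim probe set at 0.018, and the mean of its probe sets was not called (0.78 with adjusted p = 0.0952).

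Mitochondrial chaperone genes were mostly lower: 5 of the 8, all of them tested, were called lower and the median was -1.17, beside 22.8% called lower and a median of -0.028 over all genes. HSPE1, which encodes the HSP10 lid of the mitochondrial chaperonin, fell from 16289.5 and 18612 in normoxia to 5670.2 and 5734 in hypoxia (-1.61 ± 0.16 SE in log2 units, adjusted p = 1.78e-04). Its call was kept in all 15 alternatives. Since HSPE1 has only 1 probe set, the mean of probe sets could not change its size and no second set checks it. HSPD1, the gene of the HSP60 barrel that this lid closes, stayed uncalled at 23134 and 33017 on the normoxia arrays and 27109.6 and 26188 on the hypoxia arrays (-0.053 ± 0.21 SE in log2 units, adjusted p = 0.862). The hypoxia values of HSPD1 lie between its normoxia values, while its second bright probe set had both hypoxia values below normoxia, at -0.36. Under quantile normalization HSPD1 was called lower too (-0.88 with adjusted p = 3.11e-04), where HSPE1 was at -1.99, and without normoxia B 3 rather than 5 mitochondrial members were called lower. The drop in HSPE1 without a called change of HSPD1 is shown beside their shared promoter, where binding of any factor was not measured. The genes lie head to head. The stretch between their RefSeq starts (GRCh38.p14, chr2:197500275-197500378, written along HSPE1) is only 104 bases long, and capitals mark the letters ACGTG, the core of a hypoxia response element, on either strand:
HSPE1-HSPD1: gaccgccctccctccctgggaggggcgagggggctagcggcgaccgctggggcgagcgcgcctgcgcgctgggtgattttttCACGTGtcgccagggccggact

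HSPA9 (mortalin), the HSP70 of the matrix and of the motor that pulls proteins in, fell from 9719 and 10298 to 5141 and 5256 (-0.94 ± 0.16 SE in log2 units, adjusted p = 0.00177). DNAJA3, its matrix J protein, fell from 3795 and 4165 to 1952 and 1969 (-1.01 ± 0.17 SE in log2 units, adjusted p = 0.00167). The arrays of each group lay close together in both genes, and the other probe sets above the filter gave -0.89 and -1.22 for HSPA9 and -0.96 for DNAJA3. With a dim set under the filter, at 0.84, the mean of the HSPA9 probe sets was not called (-0.55 with adjusted p = 0.0735). DNAJC19, a J protein of the import motor, fell from 1735 and 1710.0 to 824 and 452 (-1.46 ± 0.28 SE in log2 units, adjusted p = 0.00384). Another probe set gave -2.67. DNAJC11, which associates with the cristae-organizing complex, fell from 1236 and 1264 to 230.1 and 732 (-1.54 ± 0.44 SE in log2 units, adjusted p = 0.0228). Its hypoxia arrays stood well apart. Its difference was -2.33 if hypoxia B was left out and -0.75 if hypoxia A was. DNAJC11 lost its call under quantile normalization (-1.43 with adjusted p = 0.0547) and without normoxia A (-1.56 with adjusted p = 0.0533) or normoxia B (-1.52 with adjusted p = 0.0637), as DNAJA3 did without normoxia B (-0.94 with adjusted p = 0.0509). DNAJC30 had groups that did not overlap but just missed the threshold (-1.34 ± 0.47 SE in log2 units, adjusted p = 0.0506), passing without hypoxia B (-1.82 with adjusted p = 0.00289). DNAJC15, an inner membrane relative of DNAJC19, was uncalled at 0.071 ± 0.21 SE, while its next probe set was at -1.44. The median of the 8 was -1.21 under quantile normalization, -1.03 scaled to the 75th percentile and -0.77 with the mean of each gene's probe sets. Scaled to the hybridization controls it was -2.53, where that of all genes was -1.48.

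Other matrix and intermembrane chaperones and proteases outside the naming rule were tested as a list. Of 11 tested, 4 were called, all lower, with a median of -0.36. Over all genes 38.0% were called in either direction and 22.8% lower. The protease gene HTRA2 fell from 2163 ± 146 to 521 ± 16.2 (-2.00 ± 0.20 SE in log2 units, adjusted p = 1.83e-04). TRAP1, the mitochondrial HSP90, fell from 4485 ± 239 to 1700.1 ± 218 (-1.39 ± 0.18 SE in log2 units, adjusted p = 4.83e-04). HSCB, a J protein of iron-sulfur cluster assembly, and the protease subunit gene CLPP had log2 differences of -1.51 ± 0.30 SE and -0.84 ± 0.22 SE. The number called in this list fell when either normoxia array was left out, as did that of all genes.

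In the nucleus, DNAJC9, a co-chaperone of histones, fell from 4670.4 and 4399 to 1760.4 and 1173 (-1.64 ± 0.22 SE in log2 units, adjusted p = 5.77e-04). Both hypoxia values lay far below normoxia, its other probe sets gave -1.24 and -1.23, and the call held in all 15 alternatives. DNAJC8, associated with splicing, fell less, from 2958 ± 108 to 1947 ± 20.9 (-0.60 ± 0.17 SE in log2 units, adjusted p = 0.0209). That probe set has the name ending used for sets prone to cross-hybridization, and another gave -0.70. DNAJC17, which has an RNA recognition motif, had the lowest log2 difference of the tested members but was uncalled (-1.92 ± 0.78 SE in log2 units, adjusted p = 0.0821), with hypoxia signals of 125 and 14.7; without hypoxia A it passed (-2.90 with adjusted p = 0.00378). At the ribosome, DNAJC2, whose product meets nascent chains together with the HSP70 HSPA14, fell from 2529.6 ± 209.6 to 1305 ± 214 (-0.95 ± 0.20 SE in log2 units, adjusted p = 0.00514). HSPA14 was at 0.29 ± 0.22 SE and uncalled (without hypoxia A 0.54 with adjusted p = 0.0130), and its other probe sets were at -0.58 and -0.97. DNAJC21, needed for maturation of the large ribosomal subunit, was uncalled at 0.45 ± 0.18 SE, with other probe sets from -0.82 to 2.75; without hypoxia B it passed (0.57 with adjusted p = 0.00706). DNAJC8 and DNAJC2 lost their calls without normoxia A (-0.63 with adjusted p = 0.211, and -0.87 with adjusted p = 0.115) or normoxia B (-0.56 with adjusted p = 0.267, and -1.03 with adjusted p = 0.0564). DNAJC8 also lost it when scaled to the 75th percentile (-0.45 with adjusted p = 0.0631) and DNAJC2 with the mean of its probe sets (-1.11 with adjusted p = 0.0593).

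Members of the endoplasmic reticulum moved in both directions: of 9 tested, 1 was called higher and 3 lower, a share near the 38.0% of all genes called. DNAJC1, a membrane J protein that works with the luminal HSP70 BiP, rose from 1468 and 1279.5 to 3170.4 and 3499 (1.27 ± 0.18 SE in log2 units, adjusted p = 8.06e-04), with its other probe sets at 1.13 and 1.02. DNAJC10 (ERdj5), a disulfide reductase that unlocks clients for degradation, fell from 4163 and 3447 to 2086 and 1732 (-0.99 ± 0.19 SE in log2 units, adjusted p = 0.00333). The mean of its 5 probe sets, of which the dimmest, under the filter, was at 0.35, was not called (-0.58 with adjusted p = 0.0903). The membrane J proteins DNAJB12 and DNAJC14 were called lower too. DNAJB12 fell from 872 and 517 to 276 and 191 (-1.46 ± 0.37 SE in log2 units, adjusted p = 0.0137). DNAJC14 fell from 1696 and 1277 to 773 and 507 (-1.20 ± 0.27 SE in log2 units, adjusted p = 0.00750). DNAJB12 has 4 probe sets, of which the dimmest was at 1.07, and the mean over them was not called (-0.82 with adjusted p = 0.165). Without normoxia A the calls of DNAJB12 (-1.09 with adjusted p = 0.221), DNAJC10 (-0.85 with adjusted p = 0.0877) and DNAJC14 (adjusted p = 0.123) were lost. The luminal BiP partner DNAJB11 (ERdj3) was uncalled at -0.11 ± 0.18 SE. HSPA13, an HSP70 without a substrate-binding domain, was at 0.37 ± 0.19 SE (without hypoxia A 0.51 with adjusted p = 0.0237), and the J proteins DNAJB14, DNAJC18 and DNAJC16 were at -0.17 ± 0.21 SE, 0.43 ± 0.41 SE and -0.55 ± 0.22 SE. DNAJC16 passed as lower without hypoxia A (-0.63 with adjusted p = 0.0111) or hypoxia B (-0.46 with adjusted p = 0.0462). Among endoplasmic reticulum chaperone genes outside the rule, BiP itself, HSPA5, rose from 20806 ± 2529.6 to 41869.5 ± 1332 (1.01 ± 0.18 SE in log2 units, adjusted p = 0.00275) and DNAJB9 (ERdj4) rose by 1.60 on the log2 scale, while HSP90B1, DNAJC3, HYOU1 and SEC63 were uncalled. Scaled to the hybridization controls, DNAJC1 was at -0.17 with adjusted p = 0.856.

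The remaining called members were cytosolic. HSPA4L, an HSP110 exchange factor, fell from 1182 and 1380.1 to 505 and 631 (-1.14 ± 0.24 SE in log2 units, adjusted p = 0.00509). Another probe set gave -1.27. Its paralogue HSPA4 was uncalled at 0.33 ± 0.16 SE (without hypoxia A 0.44 with adjusted p = 0.0361). DNAJC12, a co-chaperone of aromatic amino acid hydroxylases, fell from 641 and 464 to 163 and 243 (-1.35 ± 0.37 SE in log2 units, adjusted p = 0.0199). DNAJC7, a TPR protein that binds HSP70 and HSP90, had the weakest call of the 18, from 2088 ± 63.7 to 1451 ± 50.9 (-0.52 ± 0.18 SE in log2 units, adjusted p = 0.0468). That call held in 7 of 15 alternatives, and the mean of the gene's probe sets was 0.17. HSPA4L lost its call without normoxia B (-1.03 with adjusted p = 0.110), and DNAJC12 and DNAJC7 lost theirs without normoxia A (-1.13 with adjusted p = 0.241, and -0.49 with adjusted p = 0.396) or normoxia B (-1.57 with adjusted p = 0.0715, and -0.55 with adjusted p = 0.314). Among members whose products act on vesicles, DNAJC5 (cysteine string protein), DNAJC6 (auxilin) and DNAJC13 were uncalled, at 0.41 ± 0.20 SE, 0.22 ± 0.31 SE and -0.39 ± 0.32 SE; without hypoxia A, DNAJC13 passed as lower (-0.84 with adjusted p = 0.00961).

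The other uncalled cytosolic members had log2 differences from -0.41 (DNAJA2) to 0.90 (HSPA2, an HSP70 of male meiosis). Without hypoxia A the latter passed (1.43 with adjusted p = 0.00120), and the class A co-chaperones DNAJA2 (-0.40 with adjusted p = 0.0415; without hypoxia B -0.42 with adjusted p = 0.0345) and DNAJA4 (-0.54 with adjusted p = 0.00779) passed as lower. DNAJB4 was at 0.61 ± 0.24 SE with both hypoxia values above normoxia, and passed without hypoxia B (0.97 with adjusted p = 2.08e-04). DNAJB6, a suppressor of polyglutamine aggregation, was at 1758 and 1292 in normoxia and 1135 and 3516 in hypoxia. As in HSPH1, the hypoxia values of DNAJB6 lie on either side of normoxia, and without hypoxia A it passed as higher (1.21 with adjusted p = 2.86e-04). Uncalled members with no assigned site ranged from -0.88 (DNAJC28) to 0.55 (DNAJC4), with DNAJC27, DNAJB13 and HSPA12A between. The 17 members under the filter had mean signals from 22.4 to 90.0. They comprised HSPA1L, HSPA6 and HSPA12B, the small HSP genes HSPB2, HSPB3, HSPB6, HSPB7 and HSPB9, DNAJB7, DNAJB8, DNAJC5B and DNAJC5G, and the 5 non-coding RNAs. HSPB7, a small HSP of heart, was at 14.0 and 5.20 in normoxia and 148 and 111 in hypoxia, which was not tested because of its low mean.

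Several members act with a partner or have a close paralogue, and the ratio of their signals within an array does not depend on the factor by which that array was scaled. Since probe sets differ in brightness, only the shift between groups can be read, not the ratio itself. For 5 such pairs, chosen after their values were seen, the log2 ratio was compared between groups. HSPE1 over HSPD1 was -0.51 and -0.83 in normoxia and -2.25 and -2.19 in hypoxia, a shift of -1.55. HSP90AA1 over HSP90AB1 went the other way, from 0.17 and 0.36 to 0.91 and 0.99, a shift of 0.68. The shift was -1.48 for HSPA4L over HSPA4, -1.53 for DNAJC19 over DNAJC15 and -1.24 for DNAJC2 over HSPA14. In none of the 5 pairs did the groups overlap, but an exact two-sided permutation test of 2 against 2 arrays cannot go below 0.333, the value each pair gave, before and after adjustment. The shifts depend on the probe set: above the filter, the further sets of HSPD1, DNAJC15 and HSPA14 and 2 of 3 of HSPA4 had lower log2 differences than the brightest. In the HSP90 pair the dimmer HSP90AA1 sets, at 0.17 and 0.062, lay below an HSP90AB1 set at 0.25. An HSPA14 set at -0.97 lay below DNAJC2 at -0.95, and an HSPA4 set at -4.63 below HSPA4L at -1.14. The direction of each of these shifts turns with the choice. A DNAJC15 set at -1.44 left almost no shift against DNAJC19 at -1.46. The other HSPA14 set, at -0.58, and the HSPA4 sets at 0.36 and 0.061 kept the direction. So did the further HSPD1 sets, at -0.36 and -0.83, against HSPE1 at -1.61.

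**Figure D3:**
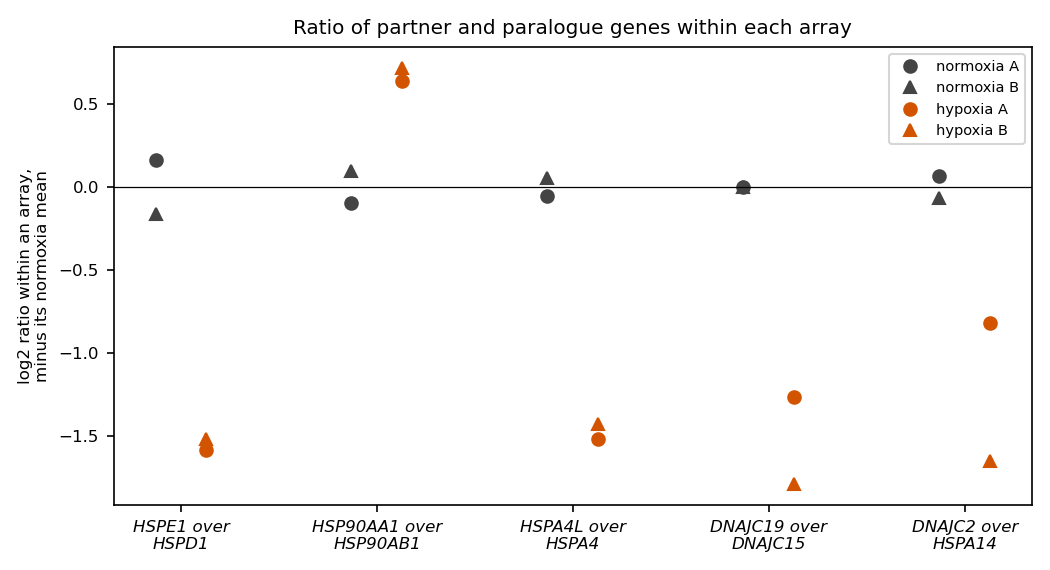
Log2 ratio of the signals of 2 genes within each array, drawn relative to the normoxia mean of the pair; each point is 1 array. Hypoxia points lie below both normoxia points for 4 pairs, with HSPE1 over HSPD1 shifted by -1.55, and above them for HSP90AA1 over HSP90AB1.

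Probe sets of one gene did not always move together. Of 36 members with more than 1 probe set above the filter, 15 had probe sets of both signs, but only 2 of the 15 called members in that group did, DNAJB12 and DNAJC7. The widest disagreement was in HSPA4. Its brightest set was at 0.33, a further pair at 0.36 and 0.061, and the dimmest, at 1486 and 1313 in normoxia and 22.2 and 48.5 in hypoxia, at -4.63. DNAJA1 differed likewise, with 0.32 for the brighter and -0.81 for the dimmer set. DNAJC1, DNAJC9, DNAJC10, HSPA4L and DNAJA3 had the same sign on all probe sets above the filter. Where along the transcripts the probe sets lie was not used here, and the part of the beta-actin 3' to 5' ratio in these disagreements was not tested.

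**Figure D4:**
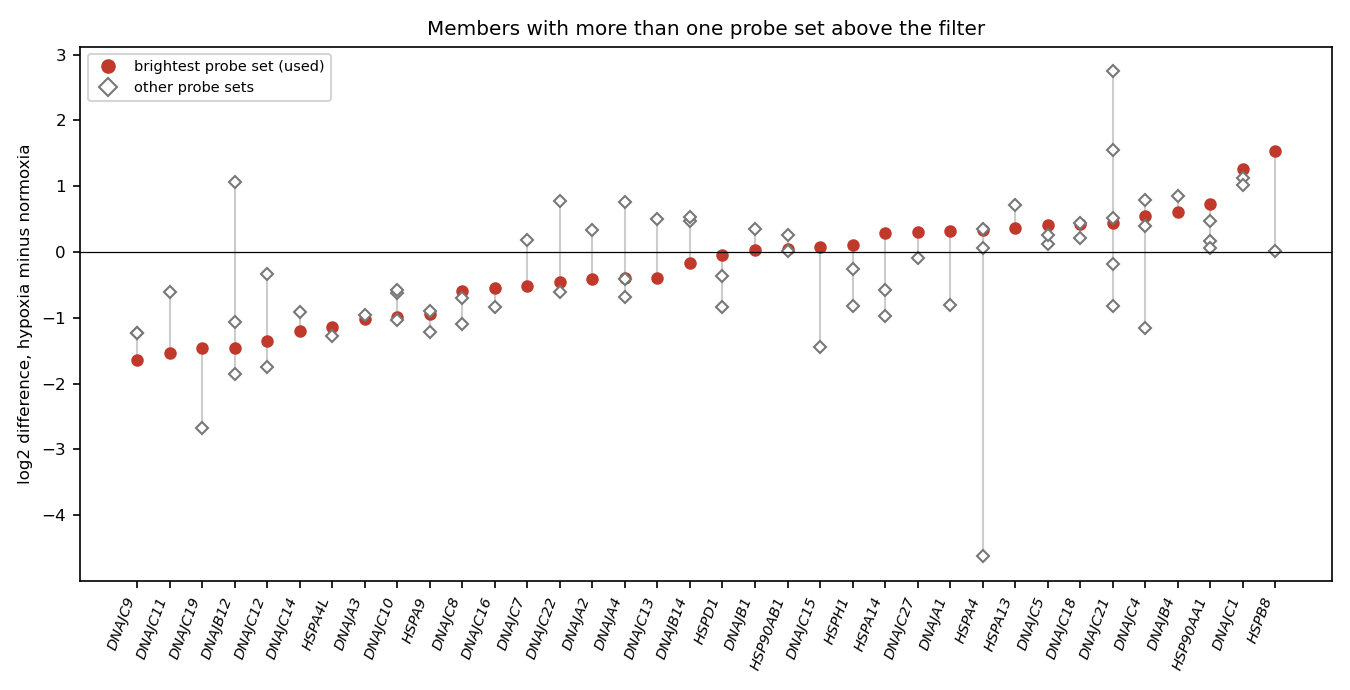
Log2 difference (hypoxia minus normoxia) of every probe set above the filter for the 36 members that have more than 1, ordered by the brightest set (filled), with the others as open diamonds. The lowest open diamond is the dim HSPA4 set at -4.63; called members at either end mostly have sets on 1 side of 0.

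The co-chaperones that hand clients between HSP70, HSP90 and degradation were called in both directions: of 25 tested, 5 were called higher and 10 lower, beside 15.3% and 22.8% of all genes, with a median of -0.27. The HSP70 exchange factor gene BAG2 fell from 4762 ± 44.5 to 1254 ± 406 (-1.94 ± 0.23 SE in log2 units, adjusted p = 3.46e-04) and the exchange factor gene HSPBP1 fell from 954 ± 48.5 to 238 ± 10.8 (-1.90 ± 0.28 SE in log2 units, adjusted p = 9.94e-04). AHSA2P, a relative of an HSP90 activator, rose from 456 ± 150.4 to 1286 ± 588 (1.41 ± 0.36 SE in log2 units, adjusted p = 0.0135), and TOMM34, which links HSP70 and HSP90 to mitochondrial import, had -1.38 ± 0.21 SE. BAG3, the partner of HSPB8, rose from 3772 ± 256 to 6607 ± 804 (0.80 ± 0.17 SE in log2 units, adjusted p = 0.00575), while BAG1 (-1.37 ± 0.36 SE) and STUB1, the ubiquitin ligase CHIP that marks HSP70 clients (-1.19 ± 0.16 SE), fell. The numbers of co-chaperones called higher and lower fell when either normoxia array was left out, as did those of all genes. Of 13 genes listed for the cytosolic chaperonin TRiC and prefoldin, which fold actin and tubulin, 5 were called lower and 1 higher. Over all genes these shares were 22.8% and 15.3%. CCT5 (-1.04), CCT2 (-0.89) and PDCD5 (-1.11), which is a subunit of neither complex, fell and PFDN5 rose (1.10). Of 8 genes of HSF1 and its regulators and targets, SERPINH1 (HSP47, the collagen chaperone, 0.99), EP300 (0.79) and HDAC6 (0.72) were called higher and SIRT1 (-0.56) lower. Over all genes 15.3% were called higher and 22.8% lower. HSF1 itself was uncalled (0.36 ± 0.21 SE in log2 units, adjusted p = 0.193). All calls of that list were lost when either normoxia array was left out, and the number of all genes called fell too.

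RefSeq promoter windows (GRCh38.p14, 250 bases before to 50 after the start, 1 window a gene) were matched for 56 of the 63 protein-coding members, all but DNAJC1, DNAJC24, DNAJC5B, DNAJC22, HSPA12B, HSPA14 and HSPB2. They were searched on both strands for the heat shock element in its shortest forms, GAANNTTC and TTCNNGAA, and for the 3-unit form, in which the former is followed by NNGAA or the latter by NNTTC, so that both short forms overlap. The 3-unit form was found in 3 of the 56, or 5.36%, against 0.49% of all 35116 windows, namely DNAJA1, DNAJB6 and HSPA6. No called member was among these. DNAJA1 and DNAJB6 were tested and uncalled, and HSPA6 was under the filter. Any other start of a gene, HSP90AA1 and DNAJB1 included, was not searched, so matches there would be missed. The short form GAANNTTC was in 8 of the 56 windows, 14.3%, against 6.77% of all windows and 4.49% of those of genes tested. TTCNNGAA was in 7, or 12.5%, against 7.74% and 6.08%. The 56 include members that were not tested. Of these, DNAJB7, HSPA1L, HSPA6 and HSPB6 held GAANNTTC, and HSPA6, HSPB6 and HSPB3 held TTCNNGAA. The shares of genes tested are thus not for a like set. HSPB8, called higher, held 2 GAANNTTC matches, 1 before and 1 after its start. The uncalled DNAJA1 and HSPB1 held that form too, and HSPA9, called lower, held TTCNNGAA across its start. Bases before the start are shown for HSPB8 (chr12:119178831-119178930, + strand), HSPA6 (chr1:161524440-161524539, + strand) and DNAJB6 (chr7:157336864-157337003, + strand), with matches in capitals, to set the short match before the start of a member that rose beside the longer runs of members not called or not tested:
HSPB8: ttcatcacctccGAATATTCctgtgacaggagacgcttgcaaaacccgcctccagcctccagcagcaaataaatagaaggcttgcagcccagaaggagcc
HSPA6: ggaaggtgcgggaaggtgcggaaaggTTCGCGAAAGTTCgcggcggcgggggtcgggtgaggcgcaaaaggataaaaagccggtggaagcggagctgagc
DNAJB6: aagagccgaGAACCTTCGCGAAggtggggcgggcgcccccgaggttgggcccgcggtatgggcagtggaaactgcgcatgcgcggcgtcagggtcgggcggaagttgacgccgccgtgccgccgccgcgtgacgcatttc

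The letters ACGTG, on either strand, occurred in 17 of the 56 windows, 30.4%, against 21.4% of all windows and 26.4% of those of genes tested. The match between HSPE1 and HSPD1 lies in the windows of both genes and counts for each. They were in the windows of 8 of the 14 members called lower, HSPE1, HSPA9, DNAJA3, DNAJC2, DNAJC8, DNAJC10, DNAJC12 and HSPA4L, and in none of the 3 matched members called higher. Over all genes the share was 30.0% for genes called lower and 28.6% for those called higher. In HSPA9, as in the HSPE1 and HSPD1 stretch, the match lies close to the start (chr5:138575402-138575481, − strand), within the palindrome CACGTG, shown in capitals because both strands match:
HSPA9: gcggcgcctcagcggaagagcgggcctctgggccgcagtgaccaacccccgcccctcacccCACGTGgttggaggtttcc
The variant GCGTG was in 30 of the 56 windows, 53.6%, against 36.5% of all windows and 50% of those of genes tested. Among the 30 were the untested DNAJB8, HSPB6, HSPB7 and HSPB9. GCGTG was in 5 of the 14 members called lower, 35.7%, against 54.0% of all genes called lower. It was also in 2 of the 3 matched members called higher, HSP90AA1 and HSPB8, against 51% of all genes called higher. These counts describe letters in a window and were not tested.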

How the data were processed

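RNA of 4 HCT116 samples was hybridized to arrays of 54675 probe sets, with 6 µg of total RNA labelled, per the labels' protocols. The deposited values are intensities on a linear scale, 1 per probe set, which the authors made by MAS5, as the submitters' processing notes name it; the version, target value and detection calls are not given in the sources used here. Groups follow the labelled oxygen level. Genes were assigned to probe sets from the platform's annotation (41091 listed for 1 gene); for each gene the set with the highest mean over the 4 arrays was used, and genes with a mean under 97.4, the median probe set mean, were not tested. Signals were taken as log2(signal + 23.7), the pseudocount being the 25th percentile of all values. The test was that of limma 3.58.1, run under R 4.3.3 (lmFit, eBayes with an intensity trend, two-sided, Benjamini-Hochberg over 12636 genes, no block), after the code was tested on simulated data. SD and SE are over n = 2 arrays a group, and this number limits the precision; no 2 arrays shared more than 1 identical value.

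The members, the lists, the sites of the proteins (from general knowledge) and the settings were chosen with earlier results of these data known. Signals on every array are given for the core heat shock genes and for the 10 largest called increases and 10 largest called decreases; other lists give up to 4 called genes with the largest change. BAG1, BAG3, STUB1, TRiC members beyond these, CLPP, the genes of the ratio pairs and those singled out for probe sets or low signals were chosen after their values were seen. Alternatives were the letters A and B as a block, other pseudocounts, scalings, filters, probe set summaries and variance models, and leaving out each array. Promoters and figures used Python 3.11.15, the latter with matplotlib 3.10.9.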

Additional observations from a re-analysis of the deposited data

How the results depend on the processing

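Over the 24 members followed through 15 alternatives (359 values, since DNAJC12 fell under the stricter filter), 291 kept their direction and side of the threshold, 42 lost and 5 gained a call in the same direction and 21 changed sign, 14 of these in genes uncalled in both fits. HSPE1 and DNAJC9 were the called members that kept their call throughout, although HSPE1 has only 1 probe set, so the mean of probe sets could not change its size. Among called values, or values called in the alternative, the sign changed for HSP90AA1 under quantile normalization (-0.23) and scaled to the hybridization controls (-0.72), HSP90AB1 in the same settings (-0.72 and -1.40), DNAJC1 scaled to the controls (-0.17) and DNAJC7 with the mean of probe sets (0.17); HSPH1 ranged from -0.70 to 0.91 without 1 array. The uncalled sign changes were in DNAJA1 (quantile normalization -0.045, controls -1.13, mean of probe sets -0.25), DNAJB1 (quantile normalization -0.065, controls -1.41), HSPH1 (controls -1.34, mean of probe sets -0.32) and HSPD1 (75th percentile 0.10), and without 1 array, with ranges of -0.080 to 0.72 for DNAJA1, -0.23 to 0.31 for DNAJB1, -0.14 to 0.24 for HSP90AB1, -0.39 to 0.0042 for HSPB1 and -0.31 to 0.20 for HSPD1. Scaled to the hybridization controls the median of all genes was -1.48, and every difference in that setting carries this shift. There 0 members were called higher by limma (0 at an unadjusted p under 0.05) and 24 lower, beside 0.37% and 42.8% of all genes. Of the TRiC and prefoldin list 11 genes were called, and of the endoplasmic reticulum genes outside the rule 0 (1 at an unadjusted p under 0.05). Without an intensity trend 2 members were called higher, 6 lower, 3 of them mitochondrial, 3141 genes in all, 8 co-chaperones and 0 of the HSF1 list (3 at an unadjusted p under 0.05). With the mean of probe sets 2 of the HSF1 list and 1 of the endoplasmic reticulum genes outside the rule were called, and 1 of the latter under quantile normalization. The cause of these changes was not tested.

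Without 1 array the members called higher ranged from 4 to 10 and those called lower from 6 to 19, the mitochondrial ones from 3 to 6, all genes called from 2575 to 6257, the HSF1 list from 0 to 4, co-chaperones from 8 to 15 and other mitochondrial genes from 2 to 6. The low ends came without a normoxia array, and the fit then assumes that the lone array varies like the other group. Of all genes called, 40.1% were higher, 49.8% when scaled to the 75th percentile, where the median gene was at 0.12, and 0.852% when scaled to the controls. The letters A and B showed a correlation of 0.0875 between the A minus B differences of hypoxia and normoxia over genes. That value cannot settle whether the arrays pair, which the labels do not say. With the letters as a replicate block 6 members were called higher and 16 lower. These are 11.8% and 31.4% of members, beside 17.6% and 25.8% of all genes.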

Other observations

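Some cytosolic chaperone genes differed widely between the 2 hypoxia arrays, in either direction. Of the members, 5 of 51 had hypoxia B above hypoxia A by 2-fold or more, against 8.61% of all genes, so the number is no result about them. Hypoxia B stood above hypoxia A by 3.10-fold for DNAJB6, 3.06-fold for HSPH1, 2.14-fold for HSPA2, 1.86-fold for HSPB8, 1.74-fold for DNAJA1 and 1.45-fold for DNAJB1, which placed DNAJB6 and HSPH1 at percentiles 95.8 and 95.8 and DNAJB1 at 81.3 of that gap among all genes tested. HSP90AA1, HSPB1, HSPE1 and HSPA9 had ratios of 1.05, 0.987, 1.01 and 1.02, and DNAJB4 and DNAJB5 were lower in hypoxia B, with ratios of 0.606 and 0.522. Over all members the median absolute gap was 0.31 in hypoxia and 0.19 in normoxia on the log2 scale, against 0.39 and 0.21 over all genes. In normoxia the same step from A to B was -0.44 for DNAJB6, 0.21 for HSPH1 and 0.15 for DNAJA1. These genes were picked after their values were seen and not by the rank of their gap, which was not tested. Members not listed above also differed widely, with ratios of 3.18 for DNAJC11 and 2.25 for DNAJB13. In the other direction the ratios were 0.0550 for DNAJC28 and 0.118 for DNAJC17.

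Without hypoxia A, 10 members were called higher instead of 4: DNAJB6, HSPH1, HSPA2, DNAJA1, HSPA4, HSPA14 and HSPA13 were added and HSP90AA1 was lost. That is 19.6% of members against 19.9% of all genes called higher in that fit. Without hypoxia B the only members added as higher were DNAJB4 and DNAJC21.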
